A study of Rattus norvegicus with 4 samples.

Results

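Solute carriers were read by 186 probe sets of 125 genes, of 8799 probe sets on the array. The members were all probe sets annotated with 1 gene whose symbol starts with Slc, leaving out Slc2a1 (2 probe sets) and 2 further probe sets annotated with several symbols. They covered 38 families, the Slco genes counted as 1. RNA came from 2 sublines of the Dunning R3327 rat prostate tumour, with 2 arrays per line and 4 in all. G is labelled a non-metastatic prostate cancer line and was the control, and MAT-LyLu is labelled highly metastatic. No treatment, genotype, passage or culture condition is given for either, and each group is a single line, so a difference between them is a difference between these lines. The study set MAT-LyLu against G. Nothing says that the duplicates came from separate cultures, so a p-value here covers only the scatter of these 4 arrays, which can be technical. Fewer cells of a type and less RNA per cell cannot be told apart.

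Solute carriers are membrane proteins that move ions, nutrients and metabolites across the plasma membrane, the inner mitochondrial membrane and the membranes of vesicles and organelles. Family numbers group them by sequence, and members of a family mostly share a kind of substrate and a driving force, such as the sodium gradient that the sodium pump maintains. In tumour cells, carriers of amino acids, lactate, glucose and bicarbonate are known to supply growth and to handle acid. Many other members are known from kidney, liver, gut or brain.

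The starts of the 4 genes with differences of 2-fold or more are shown first, because the largest differences among the solute carriers belong to them. Each sequence is the 250 bases before the annotated start in RefSeq for GRCr8, 5′ to 3′ on the gene's strand. Capitals mark matches on either strand to GGGCGG (the GC box), CCAAT (the CCAAT box), CACGTG (an E-box), TGATGNAA (a core of amino acid response elements) or TCACNCCAC (a core of sterol elements).

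Slc6a6, higher in MAT-LyLu, chr4:125752252-125752501, plus strand: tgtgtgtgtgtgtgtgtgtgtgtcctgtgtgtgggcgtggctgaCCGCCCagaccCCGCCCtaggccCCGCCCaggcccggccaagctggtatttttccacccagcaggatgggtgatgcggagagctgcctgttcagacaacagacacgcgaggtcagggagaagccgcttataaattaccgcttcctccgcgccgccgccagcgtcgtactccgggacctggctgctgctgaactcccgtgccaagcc
Slc25a1, higher in MAT-LyLu, chr11:96559804-96560053, plus strand: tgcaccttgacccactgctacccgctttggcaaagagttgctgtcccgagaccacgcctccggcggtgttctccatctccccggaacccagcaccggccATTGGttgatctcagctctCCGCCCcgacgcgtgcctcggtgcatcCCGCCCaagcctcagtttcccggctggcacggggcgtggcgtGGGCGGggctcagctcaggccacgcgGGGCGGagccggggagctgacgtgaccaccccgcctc
Slc3a2, lower in MAT-LyLu, chr1:215048065-215048314, minus strand: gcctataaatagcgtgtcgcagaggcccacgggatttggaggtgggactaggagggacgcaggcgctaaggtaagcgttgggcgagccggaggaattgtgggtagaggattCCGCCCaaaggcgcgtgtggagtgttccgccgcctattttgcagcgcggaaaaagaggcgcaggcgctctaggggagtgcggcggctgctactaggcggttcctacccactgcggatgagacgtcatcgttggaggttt
Slc5a6, lower in MAT-LyLu, chr6:31040150-31040399, plus strand: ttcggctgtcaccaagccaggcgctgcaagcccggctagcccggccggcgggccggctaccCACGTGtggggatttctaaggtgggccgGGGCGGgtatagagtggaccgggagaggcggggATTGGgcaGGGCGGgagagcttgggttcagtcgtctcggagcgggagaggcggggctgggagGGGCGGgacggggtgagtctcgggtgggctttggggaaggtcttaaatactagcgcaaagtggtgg

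GC boxes stood in all 4 windows: 3 in Slc6a6, 4 in Slc25a1, 1 in Slc3a2 and 3 in Slc5a6. Of 33469 rat windows of this length, 30.5% held at least 1. CCAAT was present once in Slc25a1 and once in Slc5a6 (34.02% of all windows), and CACGTG once, in Slc5a6 (5.59%). The amino acid response core (3.40% of all windows) and the sterol core (0.974%) had no match in these 4 windows. No matches overlapped, and a match describes letters, not a bound site. The array gives no measurement of promoters.

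Signals were set against 23 bacterial, yeast and mouse control probe sets, assumed without a test to have no target in rat RNA. For each array, background was set at the 95th percentile of their signals, and it ran from 1891 to 2311 signal units. A member was taken as above background in a line when both arrays lay above their level. By this measure 121 members (65.1%) were above background in G and 119 (63.98%) in MAT-LyLu, against 62.4% and 59.6% of all 8740 rat probe sets. On all 4 arrays 114 members were above it and 55 were under it, and 15 had 1 array above and 1 under in a line. Under the stricter level of the highest control the counts were 114 in G and 101 in MAT-LyLu.

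Of the 186 members 2 were above background on both arrays of a line and under it on both arrays of the other, 1 in each direction. Of all 8740 rat probe sets, 214 were above it in G and under it in MAT-LyLu, and 148 the reverse. Slc6a6, which encodes the taurine carrier, had signals of 1297 and 1447 in G and 5506 and 4552 in MAT-LyLu. Slc40a1, which encodes ferroportin, the iron exporter, had 2187 and 2351 in G and 1454 and 1636 in MAT-LyLu on 1 of its 2 probe sets. The other Slc40a1 probe set was under background on every array, at 1954 and 2128 in G and 1596 and 1750 in MAT-LyLu. On both probe sets the Slc40a1 signals in G lay close to the level of their array (1973 and 2143). In MAT-LyLu the Slc40a1 signals lay further under the level (1891 and 2311), while those of Slc6a6 lay well above it.

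Of all 8740 rat probe sets 4957 were above background on all 4 arrays and 2628 under it, and of the 186 members 114 and 55. Counts above background by substrate class follow, and those of several classes lay close to the share over all rat probe sets. Mitochondrial carriers (Slc25) had 14 of 16 probe sets above it on all 4 arrays, sugar carriers (Slc2, Slc5, Slc37) 15 of 17, and carriers of nucleosides and vitamins (Slc19, Slc23, Slc28, Slc29, Slc35, Slc52) 10 of 13. Classes follow the family number, so the 15 include 2 probe sets of Slc5a6, a vitamin carrier, and 1 of Slc5a5, an iodide carrier. Inorganic ion carriers had 25 of 39, neurotransmitter and osmolyte carriers 16 of 28, and amino acid and peptide carriers 14 of 26. Metal carriers had 4 of 10, carboxylate carriers (Slc13, Slc16) 6 of 10 and the urea, fatty acid and choline carriers 5 of 7. Organic ion and bile acid carriers (Slc10, Slc22, Slco), which are known from liver and kidney, had 5 of 20, with 11 under it on all 4 arrays. These shares are descriptions of the probe sets and were not tested.

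For 29 genes every probe set was under background on all 4 arrays. They included the liver bile acid carrier Slc10a1, the liver glucose carrier Slc2a2, the kidney cotransporter Slc12a1 and the kidney organic anion carrier Slc22a6. The carriers Slc6a5, Slc6a15 and Slc6a18, the vesicular amine carriers Slc18a1 and Slc18a2, and the Slco genes Slco1a1, Slco1a3, Slco1a5 and Slco2b1 were also among them.

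A signal above background on this array was not restricted to genes of the labelled tissue. Umod, a defining gene of the kidney tubule, read 6867 and 7047 in G and 7606 and 8260 in MAT-LyLu. Aqp2, a water channel of the kidney collecting duct, read 9627 to 11553 on 1 probe set and 2938 to 3438 on the other. Of 13 probe sets for markers of kidney, liver and gut, 5 were above background on all 4 arrays and 7 under it on all 4. Over all 8740 rat probe sets these were 4957 and 2628. None of the 8 marker probe sets tested passed in limma (none at an unadjusted p under 0.05). Some members known from kidney, gut or brain also had probe sets above background. Slc14a2, a kidney urea carrier, read 11761 and 11236 in G and 12200 and 12560 in MAT-LyLu on 1 probe set and 670 to 751 on the other. Slc5a1, the intestinal sodium-glucose carrier, and Slc6a4, the serotonin carrier, were above background on all 4 arrays on both of their probe sets.

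The markers of prostate and simple epithelium were at or near background, except Krt8. Of 11 probe sets for 6 such genes none was above background on all 4 arrays, and Epcam, Sbp and Pbsn were under it on every array. Krt8 read 1978 and 1691 in G and 41435 and 41521 in MAT-LyLu. Fibroblast markers went the other way: 14 of 14 tested probe sets were lower in MAT-LyLu, with summed signals over 19 probe sets of 267971 and 270902 in G against 24996 and 26904 in MAT-LyLu. Some of the 14, such as Lum (420 and 453 in MAT-LyLu), stayed in the test only through their G signals. Muscle markers were lower on 3 of 8 tested probe sets (37.5%, against a background of 20.1% lower), 2 of Tagln and 1 of Acta2. The other 2 probe sets of Acta2 and the tested ones of Ckm, Des and Myh11 did not pass. Summed signals over the 12 muscle probe sets were 82597 and 77947 in G against 52152 and 55526 in MAT-LyLu. Of 9 leukocyte marker probe sets 6 were under background on all 4 arrays and none of the 5 tested passed in limma (1 at an unadjusted p under 0.05, a probe set of Ptprc). The part of these cell type markers in the carrier differences was not tested.

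**Figure D1:**
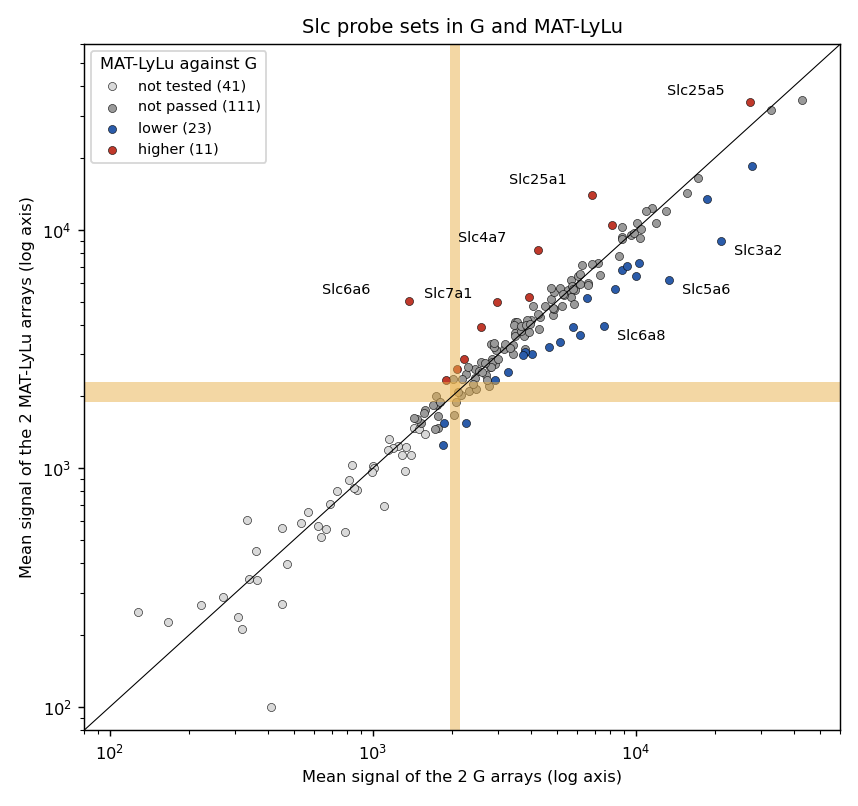
Mean signal of each of the 186 Slc probe sets in G (horizontal log axis) and MAT-LyLu (vertical log axis), coloured by the call of MAT-LyLu against G; the diagonal marks equal signals and the shaded bands the background levels of the arrays of each line. Most points lie on the diagonal, with Slc6a6, Slc25a1 and Slc4a7 above it and Slc3a2, Slc5a6 and Slc6a8 below it.

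The lines were compared for 145 members, those left after the 25% of probe sets with the lowest mean were removed; 41 members fell under that limit. Differences are on the scale log2(signal + 16), MAT-LyLu minus G, with the standard error (SE) of limma's moderated fit over 6555 probe sets, and adjusted p-values are Benjamini-Hochberg over all of them. At an adjusted p under 0.05, 11 members were higher and 23 lower in MAT-LyLu and 111 did not pass. That is 23.4% of the members tested, against a background of 33.7% of all probe sets tested. By direction, 7.59% were higher against a background of 13.6%, and 15.9% were lower against 20.1%. Without MAT-LyLu replicate 0 the higher members numbered 6 in place of 11, and without MAT-LyLu replicate 1 the lower members numbered 15 in place of 23. With quantile normalization the split was 16 higher and 20 lower, and with median scaling 15 and 20, so the split into higher and lower depends on the scaling.

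Differences among solute carriers were small. The median over the 145 members was -0.02, as over all probe sets (-0.03), and the log2 differences ran from -1.24 to 1.86. Their SD was 0.35, against 0.70 over all probe sets tested. Of the members called, 4 differed by 2-fold or more, which is 2.76% of those tested against a background of 8.36%. Another 23 of the 34 differed by less than 1.5-fold. All 34 had arrays that did not overlap between the lines, as had 60.7% of the 145 tested, 38 of them higher and 50 lower in MAT-LyLu, against a background of 67.4%. For 105 of the 111 members that did not pass, the 95% interval lay within 0.5 of 0 on the log2 scale, and for all 111 within 1. Counted by gene, with the tested probe set of highest mean for each, 20 of 103 genes were called (19.4%, against a background of 33.0%).

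**Figure D2:**
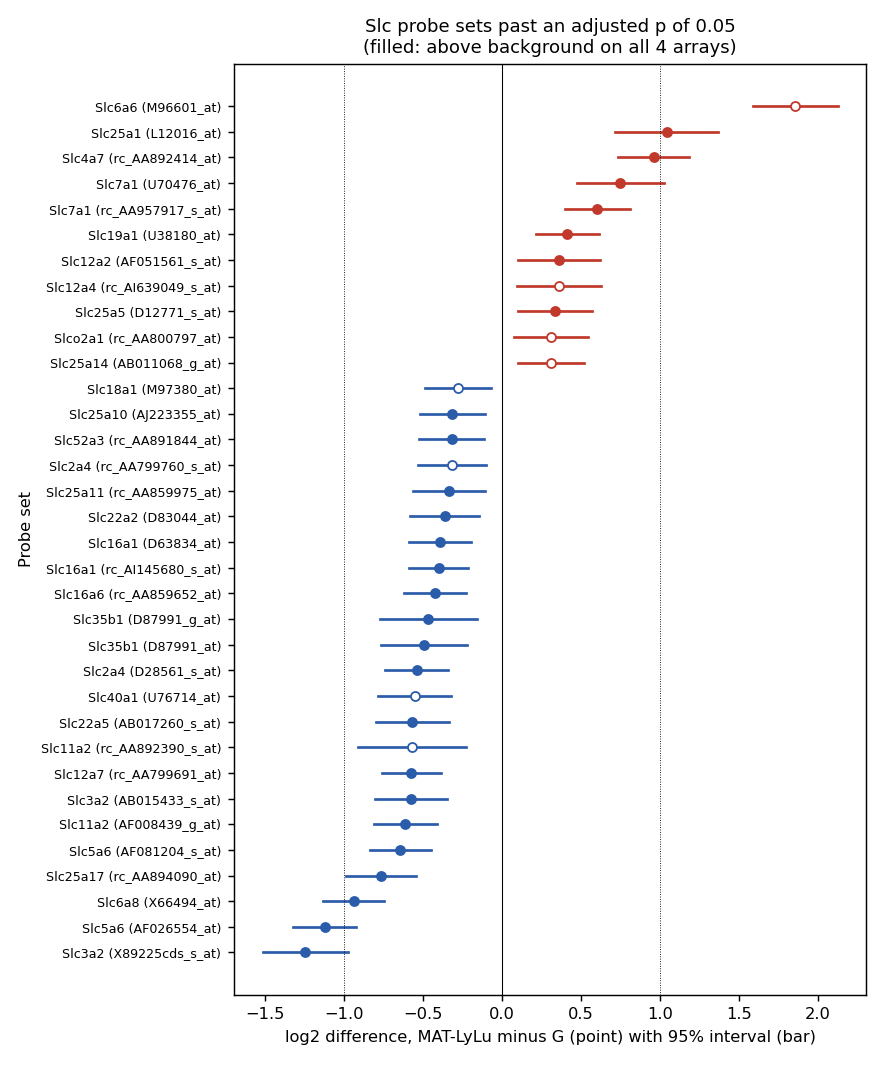
Log2 difference (MAT-LyLu minus G, point) with its 95% interval (bar) for the 34 Slc probe sets past an adjusted p of 0.05 in limma; filled points were above background on all 4 arrays (26 of 34) and dotted lines mark a log2 difference of 1 in either direction. Slc6a6 has the largest rise at 1.86 and 1 probe set of Slc3a2 the largest fall at -1.24.

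Carriers of the Slc6 family, which couple neurotransmitters, amino acids and osmolytes to sodium and chloride, included the largest rise. Slc6a6, the taurine carrier, was at 1297 and 1447 in G and at 5506 and 4552 in MAT-LyLu. Both MAT-LyLu arrays were above both G arrays, and both G arrays were under background. The rise was at least 2.42-fold with the G values raised to background, and the fitted difference was 1.86 (SE 0.11, limma adjusted p = 1.0e-05). The G signals alone were in the range of members removed as too dim, so Slc6a6 stayed in the test through its MAT-LyLu signals. Its p-value is therefore not separate support for the rise. Slc6a8, the creatine carrier, went the other way, from 7712 and 7493 in G to 3846 and 4086 in MAT-LyLu. It was above background on all 4 arrays and 1.91-fold lower (difference -0.94, SE 0.08, limma adjusted p = 7.4e-05).

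The other 12 tested Slc6 members did not pass. They included the glycine carrier Slc6a9 (difference 0.03, 95% interval -0.17 to 0.23) and both tested probe sets each of the noradrenaline carrier Slc6a2, the dopamine carrier Slc6a3 and the serotonin carrier Slc6a4. The proline carrier Slc6a7 had a difference of -0.26 (interval -0.48 to -0.04, adjusted p = 0.070), and passed only without G replicate 0 (0.038). In the Slc17, Slc18 and Slc32 families, which hold vesicular transmitter carriers and, in Slc17, organic anion carriers, 1 of 8 tested members was called: Slc18a1, the amine carrier of chromaffin cells. It was under background on all 4 arrays (1873 and 1874 in G, 1501 and 1592 in MAT-LyLu). Its adjusted p of 0.0496 lay just inside the threshold. The call was lost with a floor at background (0.94), median scaling (0.081), quantile normalization (0.076), no filter (0.053) and without any 1 of the 4 arrays (0.11 to 0.22). In the class as a whole 1 of 22 tested members was higher and 2 were lower, 13.6% against a background of 33.7%.

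**Figure D3:**
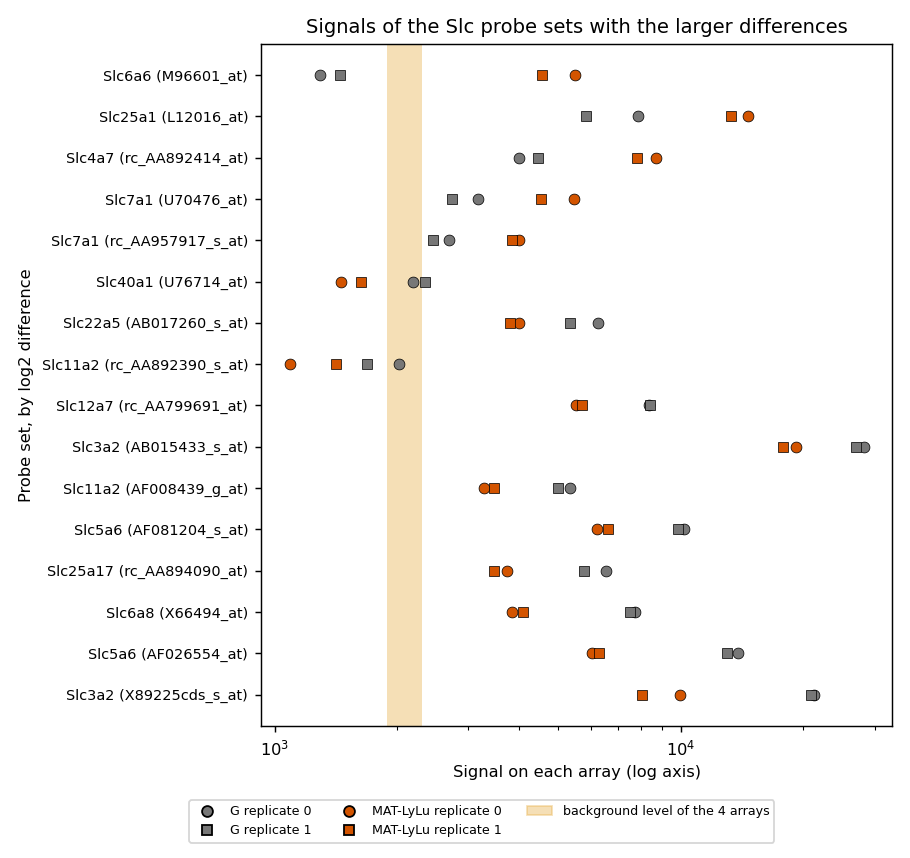
Signal on each of the 4 arrays (log axis) for the 16 called Slc probe sets with a log2 difference of at least 0.55 in size, ordered by that difference from the largest rise at the top to the largest fall; grey marks are G, orange marks MAT-LyLu, circles replicate 0 and squares replicate 1, and the band spans the background levels. In every probe set drawn both arrays of MAT-LyLu lie on the same side of both arrays of G.

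Amino acid carriers included calls in both directions. Slc3a2 encodes the heavy chain CD98, which brings several light chains to the cell surface. On 1 probe set (X89225cds_s_at) its signals were 21326 and 20973 in G and 9939 and 8029 in MAT-LyLu, 2.37-fold lower (difference -1.24, SE 0.12, limma adjusted p = 1.1e-04). On the other (AB015433_s_at) they were 28224 and 27033 in G and 19212 and 17903 in MAT-LyLu, 1.49-fold lower (difference -0.57, SE 0.10, adjusted p = 0.0028). Both were lower, by different amounts, and omitting MAT-LyLu replicate 1 ended the second call (adjusted p = 0.058).

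Slc7a5, the light chain that pairs with Slc3a2 to carry large neutral amino acids such as leucine, did not pass. Its signals were 16196 and 15054 in G and 13335 and 15292 in MAT-LyLu, so the lines overlapped (difference -0.13, 95% interval -0.37 to 0.11, adjusted p = 0.40). Slc7a1, the carrier of arginine and lysine, was higher in MAT-LyLu on 2 of its 3 probe sets. The first (U70476_at) read 3168 and 2741 in G and 5455 and 4522 in MAT-LyLu, 1.68-fold higher (difference 0.75, SE 0.12, limma adjusted p = 0.0017). The second (rc_AA957917_s_at) read 2693 and 2457 in G and 4002 and 3839 in MAT-LyLu, 1.52-fold higher (difference 0.60, SE 0.09, adjusted p = 0.0012). On the third (L10152_s_at) the difference was 0.22 (interval -0.02 to 0.47, adjusted p = 0.16), and it passed without G replicate 0 (0.041). All 3 Slc7a1 probe sets were above background on every array and had the MAT-LyLu arrays above the G arrays.

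The glutamate carriers of the Slc1 family had no call among 7 tested probe sets, with differences from -0.26 to 0.20. In limma 0 of these 7 passed the adjusted threshold, and 1 had an unadjusted p under 0.05: a probe set of Slc1a1 under background on every array. Slc7a2, another carrier of cationic amino acids, and the peptide carriers Slc15a1 and Slc15a4 did not pass either. The class had 2 higher and 2 lower among 18 tested members, 22.2% against a background of 33.7%. Of the genes to be named in any case, Slc1a5, Slc7a11 and Slc38a2 had no probe set among the members.

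Among sugar carriers 4 of 16 tested members were lower and none was higher by limma (1 at an unadjusted p under 0.05, a probe set of Slc2a5). Of the 4, 2 belong to Slc5a6, which sits in this family by sequence but carries the vitamins biotin and pantothenate. Its first probe set (AF026554_at) read 13835 and 13000 in G and 6033 and 6291 in MAT-LyLu, 2.17-fold lower (difference -1.12, SE 0.09, limma adjusted p = 3.3e-05). Its second (AF081204_s_at) read 10194 and 9823 in G and 6221 and 6606 in MAT-LyLu, 1.56-fold lower (difference -0.64, SE 0.08, adjusted p = 6.7e-04). The lines did not overlap on either probe set, and both were above background on all 4 arrays.

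The other 2 belong to Slc2a4, the insulin-responsive glucose carrier of muscle and fat. It was 1.45-fold lower on 1 probe set, from 4858 and 4525 to 3318 and 3139 (difference -0.54, SE 0.09, limma adjusted p = 0.0019). On the other it was 1.25-fold lower (adjusted p = 0.033), a call lost without G replicate 0 (0.10) or MAT-LyLu replicate 1 (0.19), with median scaling (0.053) and with a floor at background (0.064). Slc2a3, a glucose carrier of high affinity, did not pass on either probe set (differences -0.07 and 0.02, intervals -0.26 to 0.12 and -0.18 to 0.23). The fructose carrier Slc2a5 had differences of 0.25 and -0.03; the first was not called at an adjusted p of 0.065, and passed with quantile normalization (0.027), with median scaling (0.022) and without G replicate 0 (0.041). The iodide carrier Slc5a5 (0.03) and the myo-inositol carrier Slc5a3 (0.10) did not pass. Of the muscle markers 3 of 8 tested probe sets were lower (37.5%, against a background of 20.1% lower), all of Tagln or Acta2. Those of Ckm and Des did not pass, and Acta1 was under background on every array. The part of muscle markers in the Slc2a4 values was not tested. Without Slc5a6 the class had 2 of 14 tested members lower, 14.3% against a background of 20.1%.

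Among mitochondrial carriers 3 of 15 tested members were higher and 3 lower, 40% against a background of 33.7%. Slc25a1, the citrate carrier, which exports citrate for lipid synthesis in the cytosol, read 7839 and 5852 in G and 14666 and 13297 in MAT-LyLu. It was 2.06-fold higher (difference 1.04, SE 0.14, limma adjusted p = 7.7e-04) and above background on every array, with the G arrays further apart than the MAT-LyLu arrays. Slc25a17 was 1.70-fold lower, from 6533 and 5772 in G to 3745 and 3467 in MAT-LyLu (difference -0.77, SE 0.10, adjusted p = 5.0e-04). By sequence it is of this family, but its protein sits in peroxisomes, where it carries coenzyme A and related cofactors.

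The ADP/ATP carriers had opposite fitted directions. Slc25a5 read 26876 and 27316 in G and 34480 and 33963 in MAT-LyLu, 1.26-fold higher (difference 0.34, SE 0.10, limma adjusted p = 0.035), a call lost without either MAT-LyLu array (0.26 and 0.25). Slc25a4 read 37431 and 48368 in G and 35372 and 34299 in MAT-LyLu. Its difference of -0.29 did not pass (interval -0.62 to 0.04, adjusted p = 0.17), and it passed without G replicate 0 (0.00085) and with quantile normalization (0.019). The highest signal of an array was 64036 on G replicate 1 and 45582 to 47120 on the other 3, and Slc25a4 had its highest value on that array. Its part in this value was not tested.

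The phosphate carrier Slc25a3 was bright in both lines, at 32387 and 33010 in G against 33431 and 30290 in MAT-LyLu. It did not pass (difference -0.04, interval -0.29 to 0.21). The oxoglutarate carrier Slc25a11 was 1.26-fold lower on 1 probe set (adjusted p = 0.034) and had a difference of -0.07 on the other. The first lost its call without either MAT-LyLu array (0.061 and 0.15), without G replicate 0 (0.15) and with quantile normalization (0.055). The dicarboxylate carrier Slc25a10 was 1.24-fold lower on 1 of 3 probe sets (adjusted p = 0.029), a call lost without either MAT-LyLu array (0.13 and 0.060) or G replicate 0 (0.11). Another of its probe sets lay just outside the threshold (0.0502). Slc25a14 was 1.24-fold higher on 1 of 2 probe sets (adjusted p = 0.032), a call lost without either G array (0.081 and 0.056), without MAT-LyLu replicate 0 (0.18) and with a floor at background (0.093).

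Monocarboxylate carriers (Slc16) were lower on 3 of 5 tested probe sets, 60% against a background of 20.1% lower. With so few probe sets, 2 of them for 1 gene, the share was not tested. Slc16a1, or Mct1, which carries lactate, pyruvate and ketone bodies with a proton, was measured by 2 probe sets that gave close values. The first read 9224 and 9265 in G and 6968 and 7059 in MAT-LyLu (difference -0.40, SE 0.08, limma adjusted p = 0.0061). The second read 9175 and 8580 in G and 6846 and 6672 in MAT-LyLu (difference -0.39, SE 0.08, adjusted p = 0.0083), and lost its call without MAT-LyLu replicate 1 (0.054). Slc16a6 was 1.34-fold lower, from 4086 and 3989 to 2916 and 3105 (adjusted p = 0.0055). Slc16a3, or Mct4, the lactate exporter of glycolytic cells, did not pass (difference -0.09, interval -0.29 to 0.12). Bsg, the partner that brings Slc16a1 and Slc16a3 to the cell surface, was 1.33-fold lower, from 29555 and 30093 in G to 23300 and 21571 in MAT-LyLu (adjusted p = 0.015).

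Carriers of inorganic ions were the largest class, and of 33 tested members 3 were higher and 1 lower, 12.1% against a background of 33.7%. Slc4a7, which carries sodium and bicarbonate into cells, was 1.95-fold higher. It read 3999 and 4464 in G and 8697 and 7800 in MAT-LyLu (difference 0.96, SE 0.10, limma adjusted p = 1.6e-04). The other 7 tested members of the bicarbonate family, of Slc4a1, Slc4a2, Slc4a3 and Slc4a4, did not pass, with differences from -0.16 to 0.21; 1 probe set of Slc4a2 passed without G replicate 0 (0.038). The proton exchangers Slc9a2 and Slc9a3 (-0.07 and -0.10), all 6 tested probe sets of the sodium-calcium exchangers (Slc8, -0.16 to 0.11) and all 5 of the phosphate carrier Slc34a1 (-0.21 to 0.21) did not pass in limma. At an unadjusted p under 0.05 these were 2 of Slc34a1, in opposite directions, and none of Slc8, Slc9a2 or Slc9a3. Slc20a1, to be named in any case, had no probe set among the members.

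Cation-chloride cotransporters (Slc12), which set cell volume and chloride, had 2 higher and 1 lower call among 9 tested probe sets. That is 33.3%, against a background of 33.7%, and both higher calls were lost in some alternatives. Slc12a7, which lets potassium and chloride out, was 1.49-fold lower, from 8333 and 8407 in G to 5534 and 5720 in MAT-LyLu (difference -0.57, SE 0.08, limma adjusted p = 9.6e-04). Slc12a2, which brings sodium, potassium and chloride in, was 1.29-fold higher on 1 of 3 tested probe sets, from 8966 and 7289 to 10288 and 10537 (difference 0.36, SE 0.11, adjusted p = 0.039). This call was lost without either MAT-LyLu array (0.094 and 0.13) or G replicate 1 (0.16). The other 2 tested probe sets of Slc12a2 each had a difference of 0.24, and 1 of them passed with median scaling (0.027) and quantile normalization (0.034). The fourth was under background and not tested. Slc12a4 was 1.29-fold higher on 1 of 2 probe sets (adjusted p = 0.044), a call lost without G replicate 1 (0.15) or MAT-LyLu replicate 0 (0.24) and with a floor at background (0.053). Its other probe set had a difference of 0.10. A probe set of Slc12a3 lay just outside the threshold (difference 0.24, adjusted p = 0.053) and passed with both scalings (0.025 and 0.023), and its other probe set had a difference of -0.15.

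Metal carriers included 3 lower calls and no higher call among 8 tested members in limma (37.5% called, against a background of 33.7%), and none of the 8 was higher at an unadjusted p under 0.05. Slc11a2, which brings ferrous iron and other divalent metals into cells, was 1.53-fold lower, from 5350 and 4983 in G to 3276 and 3479 in MAT-LyLu (difference -0.61, SE 0.09, limma adjusted p = 9.8e-04). Its second tested probe set also fell (adjusted p = 0.019), with 1 of 4 arrays above background, a call lost without G replicate 0 (0.076) or MAT-LyLu replicate 0 (0.092) and with a floor at background (0.99). On 1 of its 2 probe sets Slc40a1 was lower by at least 1.08-fold (fitted difference -0.55, SE 0.10, limma adjusted p = 0.0036), and with a floor at background the adjusted p was 0.68. There the signal of G replicate 0 (2187) was under the highest control of that array (2440), so the bound depends on the level taken as background. The other Slc40a1 probe set, under background on every array, did not pass (difference -0.28, limma adjusted p = 0.059). The zinc carriers Slc30a2 and Slc30a4 and the magnesium carriers Slc41a2 and Slc41a3 did not pass (differences from -0.08 to 0.19).

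Among nucleoside, nucleotide sugar and vitamin carriers 1 of 12 tested members was higher and 3 were lower, 33.3% against a background of 33.7%. Slc19a1, the reduced folate carrier, was 1.33-fold higher on 1 probe set, from 3845 and 4008 in G to 5051 and 5440 in MAT-LyLu (difference 0.42, SE 0.08, limma adjusted p = 0.0064). On its other probe set the difference was 0.12 (interval -0.08 to 0.33). Slc35b1, a carrier of the endoplasmic reticulum in the nucleotide sugar family, was 1.40-fold and 1.38-fold lower on its 2 probe sets (adjusted p = 0.014 and 0.029). The second call was lost without either MAT-LyLu array (0.10 and 0.11), without G replicate 0 (0.057) and with quantile normalization (0.052). The riboflavin carrier Slc52a3 was 1.24-fold lower (adjusted p = 0.028), a call lost without either MAT-LyLu array (0.10 and 0.082), without G replicate 1 (0.12), with median scaling (0.061) and with quantile normalization (0.058). The nucleoside carriers Slc28a1, Slc28a2, Slc29a1 and Slc29a2 did not pass; Slc28a2 had a difference of -0.33 (interval -0.60 to -0.06, adjusted p = 0.062) and passed without MAT-LyLu replicate 0 (0.019).

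Among organic ion and bile acid carriers 1 of 10 tested members was higher and 2 were lower, 30% against a background of 33.7%. Slc22a5, the carnitine carrier, was 1.48-fold lower, from 6245 and 5337 in G to 4004 and 3789 in MAT-LyLu (difference -0.57, SE 0.10, limma adjusted p = 0.0032). The organic cation carrier Slc22a2 was 1.28-fold lower (adjusted p = 0.020), lost without G replicate 1 (0.083) or MAT-LyLu replicate 0 (0.093). Slco2a1, the prostaglandin carrier, was higher on 1 of 2 probe sets with 1 of 4 arrays above background (1768 and 2013 in G, 2443 and 2251 in MAT-LyLu). Its adjusted p of 0.049 was just inside the threshold, and the call was lost without either MAT-LyLu array (0.21 and 0.074), without G replicate 0 (0.18), with no filter (0.051) and with a floor at background (0.31). The bile acid carrier Slc10a2 had G signals of 2515 and 1538 against 2372 and 2360 in MAT-LyLu; it did not pass (adjusted p = 0.36), and passed without G replicate 0 (0.0025).

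The 5 tested members among urea, fatty acid and choline carriers had no call in limma, and none had an unadjusted p under 0.05. The smallest p belonged to the urea carrier Slc14a1 (difference -0.15, interval -0.33 to 0.04, adjusted p = 0.21). Slc14a2, Slc27a1, Slc27a2 and Slc44a4 had differences from -0.05 to 0.11.

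**Figure D4:**
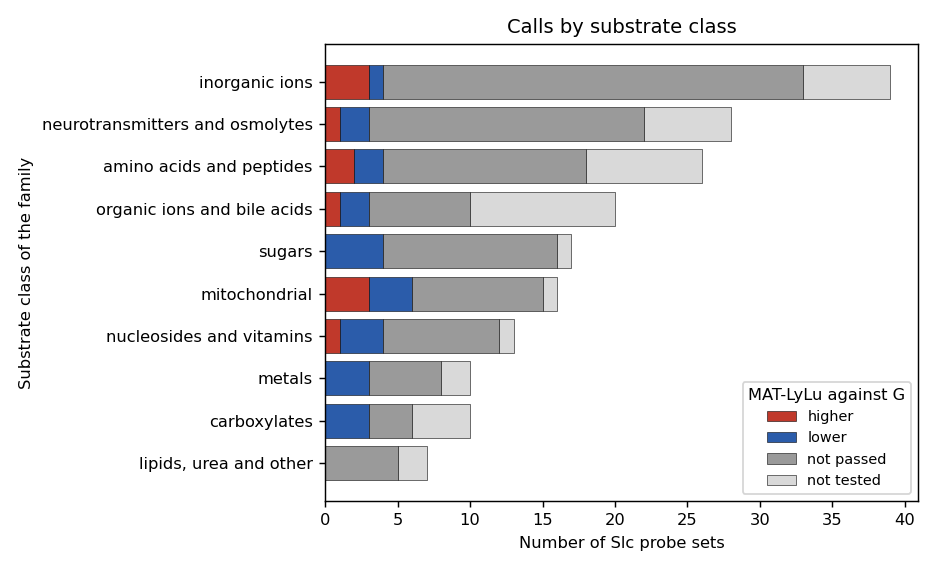
Number of Slc probe sets (horizontal axis) in each substrate class that were higher in MAT-LyLu, lower, did not pass, or were not tested. Calls are spread over 9 of the 10 classes, with 3 higher and 1 lower among 39 inorganic ion carriers and 3 and 3 among 16 mitochondrial carriers.

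Several genes were read by more than 1 probe set, which share a gene and are not replicates of a line. Of 125 genes 43 had at least 2 member probe sets, and 32 had at least 2 that were tested. A call was made for 15 of these 32, and in 6 of them all tested probe sets were called in the same direction: Slc3a2, Slc5a6, Slc11a2, Slc2a4, Slc16a1 and Slc35b1, all lower in MAT-LyLu. In each of these genes but Slc5a6, 1 of the 2 calls was lost in at least 1 run without an array. The same counts over all genes of the array were not made, so these are descriptions. Over all probe sets tested, 20.1% were lower and 13.6% higher. The 2 probe sets of Slc35b1 are named for the same sequence record. No gene had 1 probe set higher and another lower. In 12 genes 1 probe set was above background on all 4 arrays while another was under it on all 4, such as Slc8a1 (13536 and 12477 in G on 1, 850 and 724 on another), Slc1a3 and Slc14a1. Probe sets with the suffix _s, which can match related transcripts, made up 45 of the 186 members and 12 of the 34 calls, among them both probe sets of Slc3a2.

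**Figure D5:**
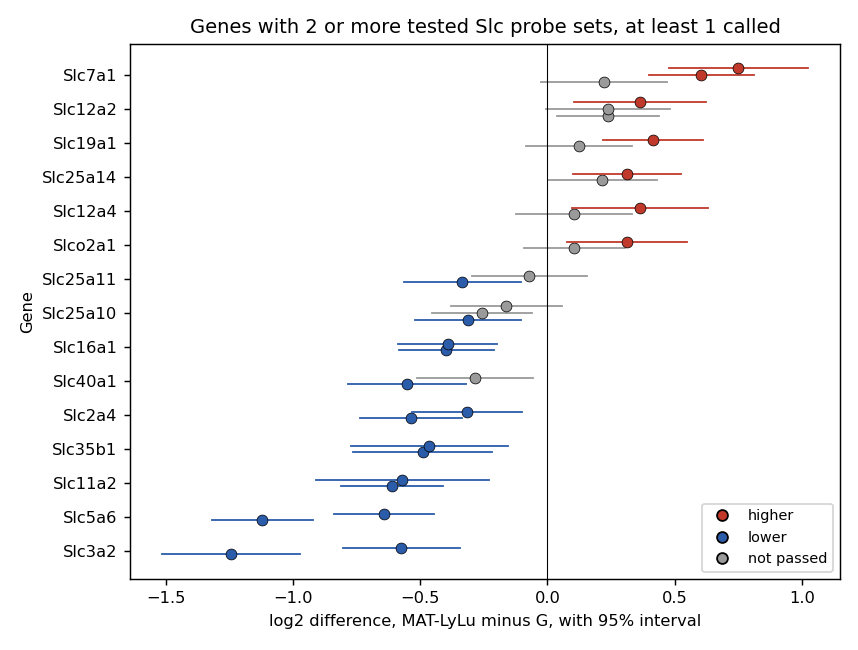
Log2 difference (MAT-LyLu minus G) with its 95% interval for each tested probe set of the 15 genes that had 2 or more tested probe sets and at least 1 call. Points of 1 gene lie on the same side of 0 in all 15; the widest gaps between probe sets are those of Slc3a2, Slc5a6 and Slc7a1.

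Other genes of membrane transport were read by 66 probe sets, of which 7 of 52 tested were higher and 12 lower. In the sodium pump list 1 of 10 tested probe sets was higher and 2 were lower, the latter both of Fxyd1, a small regulatory subunit. Fxyd1 fell 4.26-fold on 1 of them, from 13892 and 11548 in G to 2939 and 2986 in MAT-LyLu. The proton and calcium pumps had 2 of 11 higher and 2 lower. Atp2b1, a calcium pump of the plasma membrane, rose 2.09-fold on 1 probe set (4382 and 3916 against 9075 and 8323). Its other probe sets were under background on every array and not tested. Among partner proteins and scaffolds 2 of 6 tested were lower, Bsg and 1 probe set of Nptn, and none was higher in limma (none at an unadjusted p under 0.05). The list of Txnip and of kinases and ligases that act on carriers had 2 of 8 higher, Sgk1 at 1.45-fold and Nedd4 at 1.31-fold. The 2 lower were 1 probe set of the kinase gene Stk39, at 1.22-fold, and 1 of Txnip. Txnip, which restrains glucose uptake, was 2.02-fold lower on 1 of its 2 probe sets. ABC transporters had 2 of 17 higher and 4 lower: the drug exporter gene Abcb1b was 1.71-fold higher, and the peptide transporter gene Tap1 was lower on both of its probe sets, by 1.29-fold and at least 3.59-fold. Calls of these other genes were made in the fit described above, with the same background of 33.7%.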

How the data were processed

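Total RNA of the 4 samples was processed to biotinylated cRNA and hybridised to 1-colour Affymetrix arrays, per the labels' protocols. The authors deposited a table of linear signal intensity per probe set, made with MAS5 per the submitters' processing notes; the sources used here give no version, scaling target or filter. Trimmed means of the arrays (2% off each tail) differed by 7.83%, under the limit of 10% above which scaling was planned, so no further scaling was applied. Gene symbols came from the platform annotation; all 186 members were found in the GRCr8 RefSeq table by gene identifier, and 106 of the 125 genes had a window in its table of starts. No build for the array was found in the labels or file, so no probe set coordinates are printed.

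Control probe sets (59) and the 25% of the remainder with the lowest mean log2 signal were left out, which left 6555. The test was limma (version 3.58.1, under R 4.3.3) on log2(signal + 16), by lmFit and trended eBayes, 2-sided, at an adjusted p under 0.05; the code was tested on simulated arrays. Substrate classes follow the family number. Named were members called at a log2 difference of at least 1, the 5 with the highest mean signal in each line, the smallest p of each class, and 13 genes given in any case; other called members were named after their values were seen, as were the other genes singled out. The members and lists were chosen with earlier results of these data known. Alternatives were the pseudocount, the filter, scaling, a floor at background, no variance trend, a block for the replicate number, omission of each array in turn, the highest or median control as background, and 1 probe set per gene. A fold written "at least" has the dim values raised to background. The number of arrays limits the precision.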

Additional observations from a re-analysis of the deposited data

How the results depend on the processing

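The count of higher members stayed within 1.5 times of 11 (8 to 16) and that of lower members within 1.5 times of 23 (18 to 25) under another pseudocount, filter, scaling, variance model, a floor at background and the replicate block. Leaving out 1 array at a time gave 6 to 13 higher and 15 to 21 lower. With 1 probe set per gene, 6 genes were higher and 14 lower; this setting tests fewer features. Of the 34 called members 18 (6 higher, 12 lower) kept their call in every alternative that tested them, and 15 lost it in at least 1 run without an array. Those runs reuse the same arrays. With the replicate number as a block 9 were higher and 25 lower: Slc25a5 (adjusted p = 0.086), Slco2a1 (0.061) and Slc18a1 (0.051) were no longer called, and Slc28a2 (0.028), a probe set of Slc25a10 (0.044) and the second probe set of Slc40a1 (0.042) were. Same-numbered arrays had deviations from their line's mean that correlated at 0.16 over probe sets, and nothing in the labels says that the numbers pair samples. Of 28 named probe sets under up to 13 alternatives, directions reversed in 3, none of them called: Slc25a11 (second probe set) was at 0.036 with quantile normalization and -0.1458 to 0.00425 with 1 array left out; Slc25a3 at 0.065 with quantile normalization, 0.0063 with median scaling and -0.1103 to 0.032 with 1 array left out; and Slc2a3 (1 probe set) at -0.034 to 0.08305 with 1 array left out. The cause was not tested. Counts above background ranged from 114 to 159 in G and 101 to 160 in MAT-LyLu over the other levels. Small counts by class moved by more than 1.5 times in 36 of 260 recomputed values. Signals under background limit the reading of the 55 members there.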

Other observations

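Among the 41 members too dim to be tested, the arrays of the lines did not overlap for 20 (48.8%, against 54.6% of all probe sets too dim to be tested). Chosen after their values were seen, 1 probe set of Slc10a2 read 444 and 374 in G against 106 and 93.7 in MAT-LyLu. The glutamate carrier gene Slc1a3 read 362 and 301 in G against 665 and 553 in MAT-LyLu on 1 probe set, and 88.9 and 167 against 285 and 217 on another. All of these values are under the background level of their array, so they have no fold.

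The calcium pump gene Atp2a2, which refills the endoplasmic reticulum with calcium and was chosen after its values were seen, had probe sets in both directions. It was 2.06-fold higher in MAT-LyLu on 1 probe set (9916 and 8109 against 18978 and 17990) and 1.36-fold lower on another (6102 and 5396 against 4159 and 4264), with limma adjusted p-values under the threshold for both. Another probe set, under background on every array, was 1.31-fold lower (adjusted p = 0.016).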
